A study of Homo sapiens with 8 samples.

Results

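The levels of 38 genes that drive and monitor mitosis were measured in RKO cells. They are cyclins and their kinase, polo and aurora kinases, spindle checkpoint and kinetochore proteins, the proteins that start anaphase, and the factor FOXM1. They were chosen by name as mitotic regulators, with kinesins other than the kinetochore motor CENPE left out, and the rule itself used no measured value. All 38 were found by Ensembl identifier among the 57992 genes of the deposited counts, and all 38 were among the 13412 genes with enough reads to be tested. RKO is an established human colon carcinoma line. Cells received either control siRNA (4 samples) or siRNA against A20, a ubiquitin-editing enzyme encoded by TNFAIP3 (4 samples). Every culture was then given recombinant human wnt3a (50 ng/mL, 24 hours). The line was routinely kept in medium with fetal calf serum, and the medium during the wnt3a treatment is not stated. No unstimulated sample was included, so each difference is between siRNAs in the presence of wnt3a. The sources do not say whether the replicates were separate experiments, and p-values measure only the spread between these samples.

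Mitosis is entered when cyclin A and cyclin B activate CDK1. Kinetochores then tie chromosomes to spindle microtubules, and unattached kinetochores feed the spindle checkpoint, which restrains CDC20 and so holds back the anaphase-promoting complex. Once that complex is released it marks cyclin B and securin (PTTG1) for destruction, separase is freed and sister chromatids part. Transcripts of these genes are low in G1 and peak in G2 and mitosis, so their amount in a population reflects how many cells are cycling and where they stand in the cycle. Cell cycle genes homology regions (CHR), contacted by the MuvB core of the DREAM and MYBL2 complexes, and CCAAT boxes, bound by NF-Y, are the elements best known for this timing.

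The promoters of 6 of the genes are shown because they belong to the 2 genes nearest the threshold on either side with a promoter entry (MAD2L1, PTTG1, MKI67, CENPE) and to cyclin B1 and CDC20, the textbook pair of mitotic entry and exit. Each runs 5′ to 3′ along the gene from 250 bases before to 30 bases after the RefSeq start on GRCh38. Capitals mark CHR (TTTGAA) and CCAAT box (CCAAT) letters on either strand. They lie at chr4:120066819-120067098 on the minus strand (MAD2L1), chr5:160421605-160421884 on the plus strand (PTTG1), chr10:128126394-128126673 on the minus strand (MKI67), chr4:103198314-103198593 on the minus strand (CENPE), chr5:69166900-69167179 on the plus strand (CCNB1) and chr1:43358731-43359010 on the plus strand (CDC20).
MAD2L1: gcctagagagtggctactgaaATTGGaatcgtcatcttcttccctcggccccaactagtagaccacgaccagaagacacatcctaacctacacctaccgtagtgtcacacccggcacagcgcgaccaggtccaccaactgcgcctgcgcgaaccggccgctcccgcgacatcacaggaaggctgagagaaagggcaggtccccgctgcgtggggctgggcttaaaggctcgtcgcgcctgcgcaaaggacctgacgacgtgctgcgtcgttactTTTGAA
PTTG1: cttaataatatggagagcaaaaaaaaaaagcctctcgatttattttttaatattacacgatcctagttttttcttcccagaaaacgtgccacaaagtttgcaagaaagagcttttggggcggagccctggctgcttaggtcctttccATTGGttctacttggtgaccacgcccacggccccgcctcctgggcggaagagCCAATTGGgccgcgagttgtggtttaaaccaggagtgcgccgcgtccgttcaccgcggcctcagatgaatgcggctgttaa
MKI67: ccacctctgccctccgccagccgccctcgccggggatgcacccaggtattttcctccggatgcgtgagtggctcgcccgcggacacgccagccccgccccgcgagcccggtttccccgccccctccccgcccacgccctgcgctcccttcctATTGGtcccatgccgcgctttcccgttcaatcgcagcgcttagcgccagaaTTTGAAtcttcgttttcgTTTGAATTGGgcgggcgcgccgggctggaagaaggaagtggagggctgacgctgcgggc
CENPE: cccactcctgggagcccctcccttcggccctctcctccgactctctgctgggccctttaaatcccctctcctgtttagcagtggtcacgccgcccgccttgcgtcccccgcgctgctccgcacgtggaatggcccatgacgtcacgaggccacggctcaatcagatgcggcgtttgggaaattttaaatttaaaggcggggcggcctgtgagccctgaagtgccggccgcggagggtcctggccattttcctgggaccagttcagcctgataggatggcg
CCNB1: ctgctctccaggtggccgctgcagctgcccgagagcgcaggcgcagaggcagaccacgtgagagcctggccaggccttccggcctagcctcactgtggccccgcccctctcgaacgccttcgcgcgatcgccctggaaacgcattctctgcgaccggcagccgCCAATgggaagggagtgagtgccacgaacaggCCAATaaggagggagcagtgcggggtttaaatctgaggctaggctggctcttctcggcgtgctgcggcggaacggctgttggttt
CDC20: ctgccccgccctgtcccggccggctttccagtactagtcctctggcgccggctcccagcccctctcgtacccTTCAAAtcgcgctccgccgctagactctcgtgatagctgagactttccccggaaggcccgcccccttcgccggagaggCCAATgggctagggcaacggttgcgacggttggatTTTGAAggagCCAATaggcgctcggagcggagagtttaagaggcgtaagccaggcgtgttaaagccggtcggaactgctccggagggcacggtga
MKI67 held 2 CHR matches, beginning 47 and 29 bases before the start, and the second shared a base with an inverted CCAAT box. CDC20 held 2 CHR matches and 2 CCAAT boxes. MAD2L1 held a single CHR match, beginning at base 25 of the transcript, and an inverted CCAAT box. CCNB1 held 2 CCAAT boxes, PTTG1 held 3 matches on both strands of which an overlapping pair reads CCAATTGG, and CENPE held neither of these motifs.

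Over the promoters of 30 members with an entry (none was listed for AURKA, TPX2, BIRC5, BUB3, TTK, KNL1, UBE2C and FOXM1), 20 held a CHR match (66.7%), against 14.7% of 27305 promoters of the same length and 9.20% of the 9866 promoters of tested genes. CCAAT boxes stood in 23 (76.7%), against 34.7% of all promoters and 36.8% of those of tested genes, and 16 had both motifs (53.3%), against 5.65% and 3.97%. More than 1 CCAAT box was found in 16 of the 30, against 10.8% and 14.0%. A forkhead core (TAAACA, the letters recognised by the family of FOXM1) was found in 4 of 30 (13.3%, against 11.9% of all promoters and 6.36% of those of tested genes). An E2F site (TTTCGCGC) was found in 1 (3.33%, against 0.524% and 1.05%) and a TATA box (TATAAA) in 3 (10.0%, against 11.6% and 5.10%). All motifs were searched on both strands. These matches are letters in a window and do not show binding. Members with a CHR match had a median log2 fold change after A20 siRNA of 0.014 (n = 20) and those without one of 0.0024 (n = 10), and the ranges of both sets overlapped.

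Total counts on genes were between 21226451 and 34194273 per sample and overlapped between groups. The siRNA target was checked first. TNFAIP3 had 4.92, 5.83, 5.59 and 5.54 CPM (read counts normalised to the TMM-scaled library size) in control replicates 1 to 4 and 3.47, 3.01, 3.40 and 3.43 CPM in A20 siRNA replicates 1 to 4. These groups did not overlap, and 61.0% of the control level remained (log2 fold change -0.71, standard error 0.10, adjusted p = 0.00258), so the comparison is of a partial knockdown. DESeq2 gave this gene no adjusted p. Among epithelial markers KRT18, KRT8 and EPCAM were present and KRT19 and CDH1 had no reads. Of the intestinal markers CDX2 was present at 15.6 to 18.1 CPM, whereas CDX1, LGR5 and MUC2 had no reads in any sample. Fibroblast markers summed to at most 0.309 CPM and endothelial markers to at most 0.0998 CPM, and of the haematopoietic markers only CD68 reached 1 CPM. The samples differed in how their counts leaned with exonic length. Spearman's rho between a gene's deviation and its length ran from -0.203 to 0.0801 in control samples and from -0.0817 to 0.172 in A20 siRNA samples.

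The mitotic genes were abundant in RKO cells. Levels of different genes are compared as CPM per kb, that is, CPM divided by the length of all annotated exons. The transcripts in these cells may be shorter than that length, by unlike amounts in different genes. The order of genes given here therefore depends on this choice of length, and other lengths were not tested. On that scale all 38 were above the median of tested genes (5.11 CPM per kb), and they spanned a 22.9-fold range. The most abundant were TPX2, a spindle assembly factor that activates aurora A (130.3 ± 2.96 CPM per kb, SD, n = 8), UBE2C, the ubiquitin-conjugating enzyme of the anaphase-promoting complex (117.5 ± 3.55), CDC20, its activator (105.3 ± 3.66), and CCNB1, cyclin B1 (104.5 ± 2.82). The sample ranges of CDC20 and CCNB1 overlapped, and TPX2 and UBE2C each stood above the next gene in every sample. The least abundant was the phosphatase CDC25C, at 5.68 ± 0.344 CPM per kb, whereas its relative CDC25B stood at 26.5 ± 0.352 (SD, n = 8 each). Both remove inhibitory phosphates from CDK1.

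In the Ndc80 complex, which grips microtubules, levels were 18.3 ± 0.616 CPM per kb for NUF2, 12.4 ± 0.384 for NDC80, 11.2 ± 0.591 for SPC24 and 9.16 ± 0.419 for SPC25 (SD, n = 8 each). The ranges of NDC80 and SPC24 met at their ends, while NUF2 was above both in each sample. In the chromosomal passenger complex, CDCA8 (borealin), AURKB, BIRC5 (survivin) and INCENP stood at 44.4, 39.5, 35.8 and 27.4 CPM per kb. The kinase CDK1 (32.6 ± 0.778) was below both cyclin A2 (58.9 ± 1.68) and cyclin B1, and beside cyclin B2 (33.1 ± 0.957). Of the 37 pairs of neighbours in the order of all 38 levels, 27 had overlapping sample ranges, so the exact order within the middle of the list is not resolved. Neighbours such as CDC20 and CCNB1, or MKI67 and AURKA, stood in opposite order in the means of both groups.

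**Figure D1:**
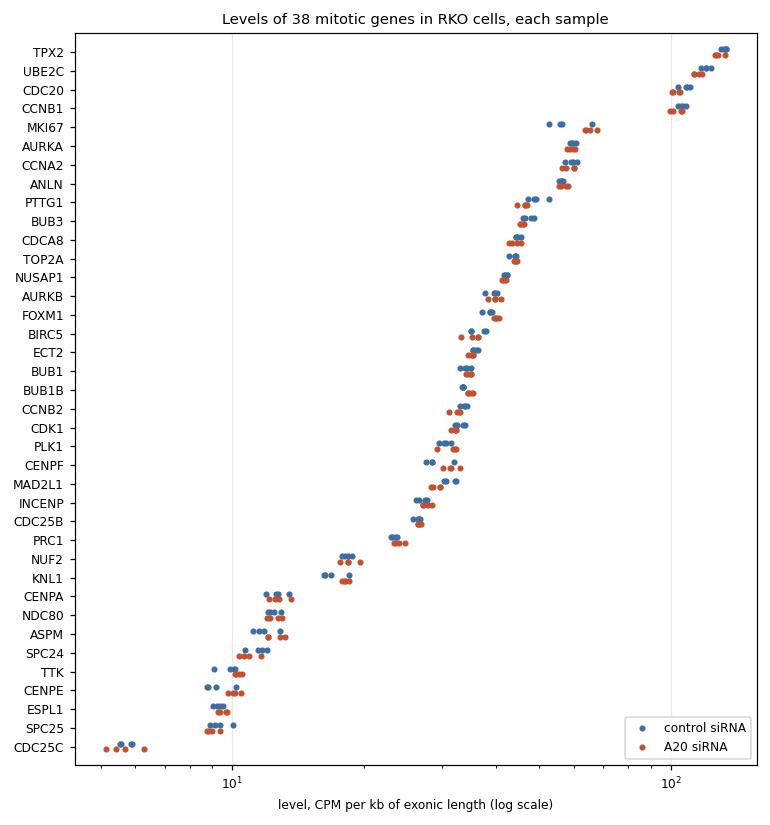
Level of each of the 38 mitotic genes in CPM per kb of exonic length (log axis), with a point for each of the 4 control siRNA (blue) and 4 A20 siRNA (red) samples. TPX2 is highest at 130.3 and CDC25C lowest at 5.68 CPM per kb, and red and blue points lie close together in nearly every row compared with the 22.9-fold span of the genes.

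After A20 siRNA the mitotic program as a whole stayed close to its level in control cells. Log2 fold changes ran from -0.11 for MAD2L1 to 0.17 for MKI67, with 20 genes above 0 and 18 below and a median of 0.011, against a median of 0.0027 over all 13412 tested genes, of which 48.4% were below 0. None of the 38 passed an adjusted p of 0.05 in edgeR's quasi-likelihood test, where 0.634% of all tested genes were called higher and 0.611% lower. At an unadjusted p under 0.05 there were 7 higher (BUB1B, CENPE, CENPF, KNL1, MKI67, ASPM, FOXM1) and 5 lower (CCNB2, MAD2L1, CDC20, UBE2C, PTTG1). These were 18.4% and 13.2% of the members, whereas across all tested genes 8.81% were higher and 7.37% lower by that rule. DESeq2 called only MAD2L1 among the 38, beside 83 higher and 122 lower of all genes. Limma-voom called none of them, beside 81 and 84. The groups did not overlap for 5 members, with A20 siRNA above in 3 (BUB1B, TTK, FOXM1) and below in 2 (MAD2L1, PTTG1). These were 7.89% and 5.26% of the members, against 3.71% and 3.9% of all tested genes. In bulk RNA a smaller share of cells in mitosis and less transcript per mitotic cell cannot be told apart.

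The depth behind these values was high. Each member had between 364 and 29970 reads in a sample, and the median coefficient of variation of a member within a group was 2.64% with control siRNA and 2.43% with A20 siRNA. The 95% intervals of all 38 fold changes lay between -0.17 and 0.27 on the log2 scale, that is, between a decrease of 10.9% and an increase of 20.4%. For 20 genes the interval stayed within 0.1 of 0, and for 36 within 0.2. Leaving out control replicate 1 gave 5 higher and 3 lower members at the adjusted threshold, whereas no other omission gave more than 1. Over all genes the fit without control replicate 1 called 567 higher and 430 lower, against 85 and 82 with all samples. With all samples kept there were 4 higher and 2 lower members without a filter on low counts. They were CENPE, CENPF, KNL1 and MKI67 higher and MAD2L1 and PTTG1 lower, beside 314 and 310 of all genes. That fit left out only the 29238 of 57992 genes with no count in any sample, so it tested more genes than the main fit. With the replicate number as a block in the fit there were 4 and 1 members, beside 262 and 212 of the same 13412 genes as in the main fit. The number of calls thus depended on the setting. Reads from the overlapping parts of genes on opposite strands may be miscounted for CCNA2, CDC25C, SPC24, NUF2, ANLN, NUSAP1 and FOXM1, since the strand setting is not given in the sources used here. BUB1B, CENPA and NUSAP1 also overlap a gene on the same strand (PAK6, SLC35F6 and OIP5-AS1), which no strand setting tells apart.

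**Figure D2:**
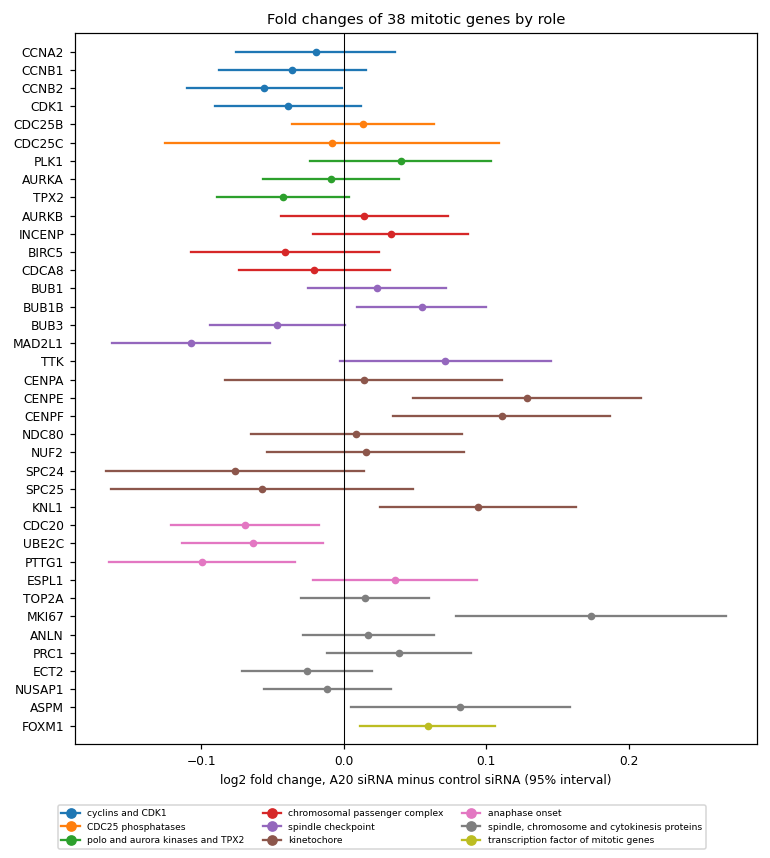
Log2 fold change of each mitotic gene, A20 siRNA minus control siRNA, with its 95% interval from edgeR's quasi-likelihood fit and colours for roles. The points lie between -0.11 and 0.17, the 3 cyclins and CDK1 all have points left of 0, and MKI67, CENPE and CENPF lie farthest to the right.

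The 4 genes of the CDK1 engine all had fold changes just under 0, and none passed the adjusted test. CCNB1 (chromosome 5, 69167135 to 69178245, GRCh38), whose protein activates CDK1 at mitotic entry, had 252, 256, 263 and 259 CPM in control replicates 1 to 4 and 257, 259, 247 and 242 CPM in A20 siRNA replicates 1 to 4. These ranges overlapped, and the log2 fold change was -0.036 (95% interval -0.088 to 0.016, adjusted p = 0.50). CDK1 itself (chromosome 10, 60778331 to 60794852) had 126, 131, 133 and 127 CPM in controls and 124, 127, 126 and 127 CPM after A20 siRNA, again with overlap (log2 fold change -0.039, interval -0.090 to 0.012, adjusted p = 0.455). For CCNB2, which is cyclin B2 and resides at the Golgi, controls had 93.3, 92.8, 90.9 and 94.5 CPM and A20 siRNA samples 90.9, 90.6, 89.3 and 86.0 CPM. The lowest control and the highest A20 siRNA sample there were both at 90.9 CPM (log2 fold change -0.056, adjusted p = 0.301). CCNA2, the cyclin of S phase and early mitosis, had the smallest difference of the 4, with a log2 fold change of -0.020.

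The phosphatases that switch CDK1 on and the polo and aurora kinases showed no shared direction. CDC25B and CDC25C had log2 fold changes of 0.013 and -0.0086, and the interval of the latter was wide (-0.13 to 0.11). Its counts were low, and its coefficient of variation with A20 siRNA, 8.62%, was the highest of the members in that group. The part of either in the width was not tested. CDC25C values were 18.6, 19.5, 19.6 and 18.5 CPM in controls and 20.9, 18.9, 18.1 and 17.1 CPM with A20 siRNA, so the A20 siRNA samples enclosed the controls. PLK1, the polo kinase of centrosome maturation and chromosome segregation, had 141, 144, 150 and 146 CPM in controls and 139, 153, 152 and 154 CPM after A20 siRNA. Replicate 1 of the A20 siRNA group was the lowest of all 8 and the other three were above every control (log2 fold change 0.040, adjusted p = 0.561). AURKA differed by -0.0093 and its activator TPX2 by -0.043 on the log2 scale, with adjusted p-values of 0.885 and 0.347.

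The chromosomal passenger complex, which corrects faulty attachments and later directs cytokinesis, was split evenly. AURKB, its kinase, had 88.7, 84.6, 90.1 and 89.0 CPM in controls and 89.1, 91.6, 88.9 and 85.9 CPM with A20 siRNA, with overlapping groups and a log2 fold change of 0.014 (interval -0.044 to 0.073). INCENP, the scaffold, had a log2 fold change of 0.033, whereas survivin (BIRC5) had -0.041 and borealin (CDCA8) -0.021. Adjusted p-values of the 4 were between 0.561 and 0.850.

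The spindle checkpoint held the member nearest the threshold in the lower direction. MAD2L1 (chromosome 4, 120055623 to 120066858) encodes MAD2, the protein that binds CDC20 to block anaphase. Its controls had 167.3, 177.8, 178.5 and 169.5 CPM, against 164.4, 157.8, 163.8 and 156.9 CPM after A20 siRNA. The highest A20 siRNA value lay under the lowest control. Group means were 173.3 ± 5.69 and 160.7 ± 3.93 CPM (SD, n = 4 each). Its log2 fold change was -0.11 (standard error 0.03, interval -0.16 to -0.052, adjusted p = 0.0508 in edgeR's test). Its adjusted p was 0.0300 with DESeq2, 0.0475 with RLE normalization, 0.0529 with limma-voom and 0.0267 with the length and GC correction. It ranged from 0.00572 without control replicate 1 to 0.167 without control replicate 2, while the fold change stayed between -0.13 and -0.095.

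Partners of MAD2 in the checkpoint had fold changes of both signs. BUB1B, which encodes BUBR1, another subunit of the inhibitory complex, had 149.4, 148.9, 149.9 and 149.5 CPM in controls and 153.5, 153.5, 157.5 and 156.6 CPM with A20 siRNA. Its controls were the tightest of all members in either group, with a coefficient of variation of 0.281%, and the A20 siRNA samples all lay above them (log2 fold change 0.055, standard error 0.02, adjusted p = 0.210). The kinase BUB1, which recruits the checkpoint to kinetochores, had 209, 220, 214 and 216 CPM in controls and 214, 217, 221 and 221 CPM with A20 siRNA (log2 fold change 0.023, adjusted p = 0.681). BUB3, the adaptor of BUB1 and BUBR1, had a log2 fold change of -0.047 and TTK, the kinase MPS1 that launches the checkpoint, 0.071. Neither passed the test (adjusted p = 0.318 and 0.332). For TTK the lowest A20 siRNA sample, at 46.40 CPM, lay just above the highest control, at 46.29 CPM.

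At the kinetochore, 6 of 8 genes had fold changes above 0, and the 3 largest belonged to its longest transcripts. CENPE, the kinetochore motor that carries chromosomes to the metaphase plate, had 100.9, 91.0, 87.4 and 86.7 CPM in controls and 103.7, 96.7, 99.8 and 100.4 CPM with A20 siRNA. Control replicate 1 was within the A20 siRNA range and the other controls were below it (log2 fold change 0.13, standard error 0.04, adjusted p = 0.0977). CENPF, a coiled-coil protein of the outer kinetochore and a classic G2 marker, had 400.2, 344, 356 and 355 CPM and then 412, 377, 393 and 390.4 CPM. KNL1, the scaffold on which BUB proteins gather, had 189, 167, 172 and 166 CPM and then 189, 182, 185 and 185 CPM. On the log2 scale these differed by 0.11 and 0.094 (adjusted p = 0.129 and 0.157). Control replicate 1 stood among the A20 siRNA samples for CENPF and level with the highest of them for KNL1, and the other controls lay below all A20 siRNA samples for both. The microtubule-binding Ndc80 complex gave small values of both signs. NDC80 had 45.8, 44.3, 42.9 and 43.2 CPM in controls and 46.1, 42.6, 45.2 and 43.4 CPM with A20 siRNA, with full overlap (log2 fold change 0.0088). NUF2 differed by 0.015, SPC24 by -0.077 and SPC25 by -0.058, and CENPA, the histone variant that marks centromeres, by 0.014. Their adjusted p-values were between 0.401 and 0.934.

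Genes of anaphase onset were mostly below 0. PTTG1, which encodes securin, the inhibitor of separase, had 93.1, 103.9, 96.4 and 97.5 CPM in controls and 91.7, 91.7, 93.0 and 87.9 CPM with A20 siRNA. The groups did not overlap, though the third A20 siRNA sample lay just under the first control (log2 fold change -0.10, standard error 0.03, adjusted p = 0.111). Near-identical copies of PTTG1 exist in the genome, so its uniquely mapped count is less certain. CDC20 had 209, 217, 223 and 219 CPM in controls and 210.2, 211, 203 and 202 CPM with A20 siRNA, so only control replicate 1 fell among the A20 siRNA samples (log2 fold change -0.070, adjusted p = 0.165). UBE2C had 150.9, 158.4, 154.5 and 154.4 CPM and then 148.8, 151.3, 145.4 and 145.4 CPM, with the same single overlap (log2 fold change -0.064, adjusted p = 0.180). The fourth gene, ESPL1, encodes separase and had a log2 fold change of 0.036 (adjusted p = 0.567).

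The widest difference between siRNAs was in MKI67 (chromosome 10, 128096659 to 128126423), the gene of the proliferation antigen Ki-67, which coats mitotic chromosomes. Control replicates 1 to 4 had 851, 677, 720 and 727 CPM and A20 siRNA replicates 1 to 4 had 874, 822, 818 and 842 CPM. Control replicate 1 was higher than all A20 siRNA samples but the first, while the other 3 controls were below the whole A20 siRNA group. Group means were 743.7 ± 74.9 and 838.8 ± 25.7 CPM (SD, n = 4 each). The log2 fold change was 0.17 (standard error 0.05, interval 0.078 to 0.27), and its adjusted p was 0.0595 in edgeR's test. Among alternatives with all samples it was 0.269 with DESeq2, 0.0553 with limma-voom, 0.0535 when length and GC content were corrected and 9.55e-11 without a filter on low counts. The fit without a filter used the same counts of MKI67 but gave a standard error of 0.023 in place of 0.045. Its small p-value therefore does not come from a narrower spread of these samples. Without control replicate 1 the log2 fold change was 0.24 with an adjusted p of 3.01e-05, and in the 7 other fits that left out a sample the adjusted p was between 0.0620 and 0.205.

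Other proteins of the spindle and of cytokinesis were nearer 0. TOP2A, the topoisomerase that untangles chromatids and, like Ki-67, is read as a marker of proliferation, had 282, 280.4, 281 and 272 CPM in controls and 281, 283, 283 and 279 CPM with A20 siRNA. Its groups overlapped and the log2 fold change was 0.015 (interval -0.030 to 0.060, adjusted p = 0.784). ASPM, a spindle pole protein, had a log2 fold change of 0.082 (adjusted p = 0.281). The cytokinesis proteins ANLN, PRC1 and ECT2 gave 0.017, 0.039 and -0.026, and NUSAP1, a microtubule bundler, -0.012. FOXM1, the forkhead factor that switches on many genes of this list in G2, had 189.9, 182.5, 191.8 and 190.5 CPM in controls and 196.4, 196.0, 194.6 and 199.0 CPM with A20 siRNA. All its A20 siRNA samples were above all controls, with a log2 fold change of 0.059 (interval 0.011 to 0.11) and an adjusted p of 0.201.

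**Figure D3:**
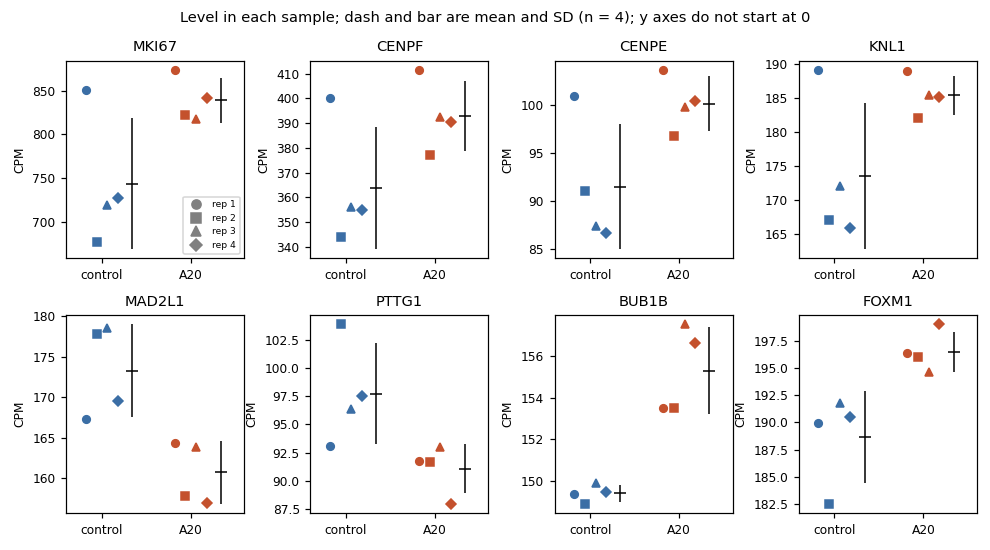
CPM of 8 mitotic genes in each sample, with a marker shape for each replicate number and the mean ± SD of each group (n = 4) as a dash and bar; the vertical axes do not start at 0. In MKI67, CENPF, CENPE and KNL1 the circle of control replicate 1 sits level with the A20 siRNA samples and above the other controls, whereas MAD2L1, PTTG1, BUB1B and FOXM1 have no overlap between groups.

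The direction of a mitotic gene went with its length. Across the 38 genes Spearman's rho between exonic length and log2 fold change was 0.67, a description in which all points share the same 8 libraries, and over all 13316 tested genes with a length it was 0.180. Of the 12 shortest members (1286 to 2928 bases) 10 were below 0, with a median of -0.046. Of the 12 longest (5517 to 12845 bases) 10 were above 0, with a median of 0.037. All tested genes in the same length ranges had medians of -0.025 and 0.012. After a correction of each sample for its trend with length and GC content, the medians of these members were -0.031 and 0.035 and rho was 0.57, and over all genes rho was 0.038. The part of length in the members' differences was not tested beyond these values.

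**Figure D4:**
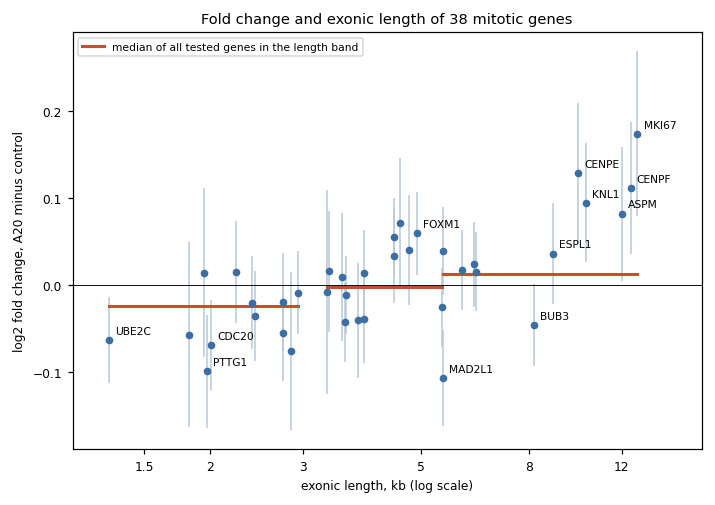
Log2 fold change (A20 siRNA minus control siRNA, 95% interval) of the 38 mitotic genes against exonic length in kb (log axis), with red bars for the median of all tested genes in the length range of the 12 shortest, 14 middle and 12 longest members. The members run from below 0 on the left to above 0 on the right, and MKI67, CENPF, ASPM, KNL1 and CENPE, all of at least 9928 bases, lie well above the red bar at 0.012.

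The 5 longest members, MKI67, CENPF, ASPM, KNL1 and CENPE, moved together from sample to sample. Relative to each gene's mean, their median log2 deviation was 0.078, -0.10, -0.085 and -0.12 in control replicates 1 to 4 and 0.12, 0.017, 0.053 and 0.070 in A20 siRNA replicates 1 to 4. The corresponding medians of the 2003 tested genes of at least 9928 bases were 0.020, -0.030, -0.016 and -0.027 in controls and 0.017, -0.0024, 0.020 and 0.030 with A20 siRNA. The second set of medians is over many more genes, and the spans of both sets were not compared by a test. Replicate 1 was the highest of its group for all 5 of these genes with control siRNA and for all 5 with A20 siRNA. Among all genes as long, it was the highest in 49.4% and 25.2%. Their median log2 fold change was 0.11, against 0.028 for all genes as long, and 0.085 against -0.0011 after the length and GC correction. These 5 were grouped after their values were seen, and no test was made of the group.

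Taken over all 38 members the samples differed little, and the median deviation was between -0.0084 and 0.0099 in every sample. A20 siRNA replicate 4 had the lowest value of all 8 samples for 12 of the 38 members, against 16.1% of tested genes. The highest value was most often that of A20 siRNA replicate 1, for 8 members, against 10.7% of tested genes. The members together took 0.649% ± 0.011 of all counts in controls. With A20 siRNA that share was 0.663% ± 0.0050 (SD, n = 4 per group). Control replicate 1, at 0.665%, was above 3 of the 4 A20 siRNA samples, so the groups overlapped in this share. The mitochondrial share of counts did separate the groups, at 1.17 to 1.41% in controls and 1.44 to 1.59% with A20 siRNA. Its part in the members' differences was not tested.

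**Figure D5:**
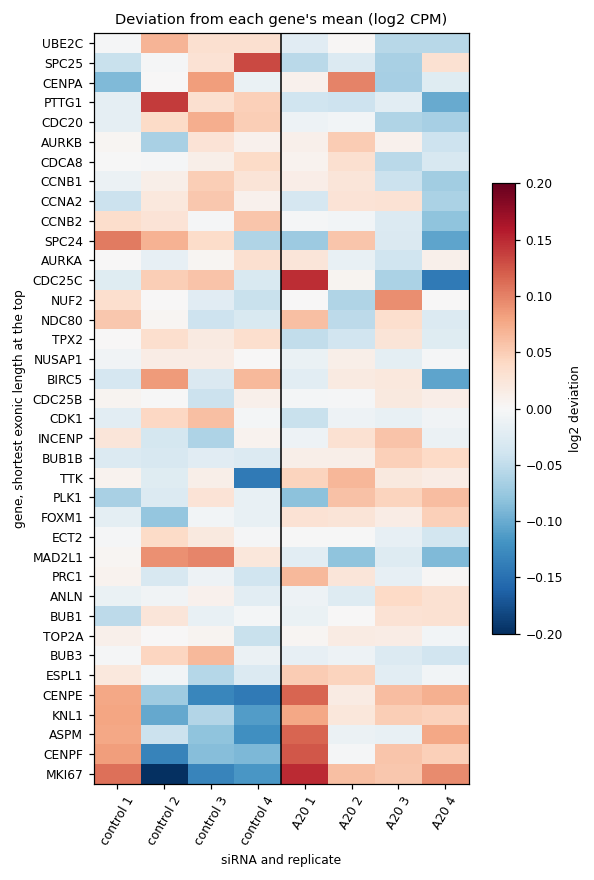
Log2 CPM of each mitotic gene relative to its mean over the 8 samples, with genes from shortest (top) to longest exonic length (bottom) and samples in columns. The bottom 5 genes are red in control replicate 1 and A20 siRNA replicate 1, blue in control replicates 2 to 4 and mostly pale red in the other A20 siRNA samples, and colours above them are mixed.

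Other cell cycle genes around these 38 gave a similar picture. Of 145 such genes in 10 lists 143 were tested, 72 above 0 and 71 below with a median log2 fold change of 0.00082, and 2 passed the adjusted threshold in edgeR's test, 1 higher and 1 lower, a share near the 0.634% and 0.611% of all tested genes. KNTC1, the Rod subunit of the complex that brings dynein and MAD proteins to kinetochores, had 38.5, 35.1, 35.5 and 32.9 CPM in controls and 42.4, 42.8, 39.2 and 40.1 CPM with A20 siRNA. It rose without overlap between groups (log2 fold change 0.21, standard error 0.04, adjusted p = 0.0319), and its 11325 bases of exon put it among the long genes described above. CDK4, the G1 kinase partnered by cyclin D, had 166.5, 175.5, 168.4 and 167.2 CPM and then 158.7, 161.9, 153.7 and 147.1 CPM. It fell, also without overlap (log2 fold change -0.12, standard error 0.03, adjusted p = 0.0390). KNTC1 lost the threshold without control replicate 2, 3 or 4 or A20 siRNA replicate 1 or 3 (adjusted p of up to 0.118), and CDK4 without control replicate 2, 3 or 4 or A20 siRNA replicate 3 or 4 (up to 0.148). DESeq2 and limma-voom called both.

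No gene of the other 8 lists passed. Medians were 0.0026 for 17 subunits and partners of the anaphase-promoting complex, -0.0015 for 8 condensin subunits and 0.029 for 13 cohesin genes, where 10 were above 0. For 21 inner centromere and Mis12 genes the median was 0.014, and for 14 other spindle and cytokinesis genes 0.0026. The 17 DREAM, MuvB and E2F factors, which control transcription of mitotic genes, had a median of 0.021, and RBL2, a pocket protein of DREAM, had their smallest p (log2 fold change 0.11, adjusted p = 0.116). Among 14 other regulators of mitotic entry and exit 10 were below 0 (median -0.036), and so were 13 of 18 S phase genes (median -0.025). The smallest adjusted p-values in the remaining lists belonged to the condensin core SMC4 (0.0725), the replicative polymerase POLE (0.0716), the cohesin loader NIPBL (0.0917) and the anaphase-promoting complex subunit CDC27 (0.0953). SMC4, POLE and NIPBL, with 8164, 12364 and 12519 bases of exon, had log2 fold changes of 0.099, 0.12 and 0.092. CDC27, with 6824 bases, had one of -0.079. The part of length in the directions of these lists was not tested. The smallest p among centromere genes was that of CENPT, that among entry and exit regulators that of ENSA, and that among spindle genes that of SPAG5, with adjusted p-values of 0.198, 0.266 and 0.203. The checkpoint list other than KNTC1 and the G1 list other than CDK4 held no call.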

How the data were processed

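RNAseq of polyadenylated RNA was available for 8 samples of RKO cells. The authors trimmed reads with Trimmomatic, used STAR for mapping to GRCh38 and for counting, and deposited raw counts of uniquely mapping reads per GENCODE gene, without normalization. The strand setting and the versions of Trimmomatic and STAR are not given in the sources used here. Ensembl identifiers were matched to GENCODE release 44 (56948 of 57992 genes) for symbols, coordinates and exonic lengths, and promoters were RefSeq's on GRCh38.p14.

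The test of counts was that of edgeR 4.0.16 (R 4.3.3), with filterByExpr with a minimum count of 10 (13412 genes), TMM, and the quasi-likelihood test without covariates, with Benjamini-Hochberg adjustment over all tested genes at 0.05. Standard errors came from the fold change and F statistic, and 95% intervals from the t distribution. The code was checked on simulated data. Total counts per sample limit the precision (3 counts are 0.0877 to 0.141 CPM), and such floors cover counting error only.

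The 38 members and the lists were chosen with earlier results of these data known. Values per sample were given for the 5 members of smallest p in each direction, 1 or more per role and called genes, and the gene of smallest p was named in each other list. Alternatives were RLE normalization, no filter, a stricter filter (10 counts or more in each sample), DESeq2 1.42.0, limma-voom (limma 3.58.1), the replicate number as a block, loess corrections (span 0.5) for length alone or with GC content, the block with that correction, and each sample left out. No protein sequence was used here.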

Additional observations from a re-analysis of the deposited data

Results flagged for a closer look

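The 38 mitotic genes and TNFAIP3 make 78 sets of 4 values, 1 per gene and siRNA, and in 2 of them a single sample stood far from the others. Chance gives about 1 in 20 such sets, or 3.9 here. For PLK1 with A20 siRNA, replicate 1 lay below the others, with a gap to the nearest of 0.873 of the range of the group (139.2 CPM against 151.9 to 153.7). For TNFAIP3 with A20 siRNA, replicate 2 was lowest at 3.01 CPM, the others were at 3.40 to 3.47, and the gap came to 0.847 of the range.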

How the results depend on the processing

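The number of called mitotic genes depended on the settings, while the median of their fold changes stayed near 0. Against 0 higher and 0 lower members, there were 0 and 1 with RLE normalization, with DESeq2 and with either correction for length, 4 and 2 when low counts were kept, 4 and 1 under the replicate block, and 3 and 1 when that block was joined to the correction for length and GC content. With the block the called members were MAD2L1, CENPE, CENPF, KNL1 and MKI67 (adjusted p = 0.00108 for MKI67, and 0.00215 with the correction added), and with low counts kept PTTG1 as well. Same-numbered samples correlated in their deviations over all tested genes by 0.116, 0.0607, 0.0823 and -0.0353. Counting noise lowers such values, so they cannot settle whether the numbers pair the samples. The sources do not say so either. The main fit left the block out, and the count of called members depended on that choice. Over all genes the counts of 85 higher and 82 lower became 87 and 95 with RLE normalization and 83 and 122 with DESeq2. They were 96 and 120 with the length correction and 102 and 127 with the length and GC correction. Without a filter, where more genes were tested, they were 314 and 310. The block gave 262 and 212, and the block with the length and GC correction 212 and 222. With 1 sample left out, 6 to 567 genes were higher and 6 to 430 lower, 0 to 5 members were higher and 0 to 3 lower, and the median log2 fold change of members ran from -0.0047 to 0.013. The highest counts came without control replicate 1. The cause was not tested. Of 306 values of 18 named members under 17 alternatives, 12 changed sign. CDC25C was 0.00032 with the length correction, 0.0019 with the length and GC correction and from -0.077 to 0.027 with a sample left out. AURKB then ran from -0.0062 to 0.027 and NDC80 from -0.017 to 0.028. Depth and spread left standard errors of 0.021 to 0.056 on the log2 scale, and differences of that size were not resolved. Larger ones could also miss the adjusted threshold in the main fit, as did MKI67 at 0.17 with a standard error of 0.045.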
